A study of Mus musculus with 8 samples.

Results

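The genes described here carry ring finger (Rnf), tripartite motif (Trim) or ubiquitin-specific protease (Usp) names. Membership was set by symbol alone, but this set of names was chosen with earlier results of these data known. A member is any mouse protein-coding gene whose symbol starts with Rnf, Trim or Usp followed by a digit. Left out were 9 such genes on the X or Y chromosome. This gave 82 Rnf, 68 Trim and 50 Usp genes, 200 members among 20807 protein-coding genes outside the X, Y and mitochondrial chromosomes. The rule reads names and not function, so Usp6nl, which encodes a GTPase-activating protein and not a protease, is counted with the Usp genes.

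N6-methyladenosine (m6A) was mapped by MeRIP-Seq in bone-marrow-derived macrophages (BMDMs) of 4 C57BL/6 mice aged 8 weeks. The 2 wild-type (WT) mice were Mettl3 fl/fl Lyz2 +/+ and the 2 knockout (KO) mice Mettl3 fl/fl Lyz2 cre/+, so that all 4 carried floxed alleles of the m6A methyltransferase gene and only the KO mice carried Cre. Lyz2-Cre is also active in granulocytes and some dendritic cells, and marrow was cultured for 7 days with 40 ng/mL M-CSF before RNA was taken. An immunoprecipitated and an input library were made per mouse, 8 libraries in all, and 1 peak list per mouse is analysed here. The lists are named WT-1 and WT-2 for the WT mice, and KO-1 and KO-2 for the others. Wherever 4 values follow each other, the WT lists come first and each genotype is in the order of its numbers.

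Ubiquitin is passed from an activating (E1) to a conjugating (E2) enzyme and then, with the help of a ligase (E3), to a target protein. Rnf and Trim proteins are mostly RING-type E3 ligases, and Trim proteins combine the RING with B-box and coiled-coil parts. Usp proteins are cysteine proteases that remove ubiquitin again, and in macrophages both kinds of enzyme set the strength of RIG-I, cGAS-STING and Toll-like receptor signalling. m6A is deposited by the METTL3-METTL14 complex at adenosines that often lie within GGAC, and is known to concentrate near stop codons and in long exons.

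Each list gives the position, strand and score of its peaks, with 6159, 6263, 6378 and 6684 peaks. A peak was given to the protein-coding gene with the largest exon overlap on its strand, which placed between 94.8% and 96.2% of a list. The lists hold neither read counts nor RNA levels. A gene without a listed peak may be unmethylated, unexpressed or below the calling threshold, and fewer expressing cells and less RNA per cell cannot be told apart. What the score measures is not given in the sources used here, so a peak is described by its score percentile, the share of peaks of its own list that score no higher. Between 10.3% and 19.5% of a list, and between 13.9% and 21.6% of its member peaks, score 3100 or more, so the highest percentiles are largely ties. No peak lay on Mettl3 in any list, which leaves the genotype unchecked by these files. Among chosen marker genes, 3 of 8 for macrophages, 0 of 5 for granulocytes, 1 of 5 for T and B cells, 0 of 3 for dendritic cells and 2 of 3 for fibroblasts had a peak in some list. These counts give no RNA level and do not check the cell type.

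The sequences that recurred with the highest scores inside coding exons are shown first for the Trim and Usp genes. Each is the stretch listed in all 4 lists, or its central 300 bases, in the recurrent region that lay wholly in coding sequence and had the highest median percentile, ties broken by symbol. Coordinates are GRCm38 (mm10), sequences are read 5′ to 3′ on the gene's strand, and each GGAC is in capitals. Trim59 encodes a membrane-anchored Trim protein, and Usp34 a protease linked to Wnt signalling.
Trim59, chr3:69037018-69037317, minus strand, exon 3 of 3: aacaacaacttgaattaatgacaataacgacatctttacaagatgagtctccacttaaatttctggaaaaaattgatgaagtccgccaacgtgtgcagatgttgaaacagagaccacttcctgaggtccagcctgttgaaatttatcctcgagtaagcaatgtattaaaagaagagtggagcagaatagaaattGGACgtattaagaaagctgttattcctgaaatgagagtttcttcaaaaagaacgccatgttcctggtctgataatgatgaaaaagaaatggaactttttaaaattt
Usp34, chr11:23364092-23364391, plus strand, exon 15 of 80: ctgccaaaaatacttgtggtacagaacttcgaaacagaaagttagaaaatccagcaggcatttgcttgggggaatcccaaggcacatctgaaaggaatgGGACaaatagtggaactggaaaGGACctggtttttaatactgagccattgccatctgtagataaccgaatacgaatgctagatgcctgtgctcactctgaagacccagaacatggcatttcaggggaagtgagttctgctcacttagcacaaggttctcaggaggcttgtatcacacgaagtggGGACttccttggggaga
The Trim59 stretch holds GGAC at 1 place and the Usp34 stretch at 3. Usp34 reached the 99.7, 99.1, 99.4 and 99.3 percentiles in the 4 lists. Trim59 was the only Trim gene with a recurrent region wholly in coding sequence, and it scored lower, at 71.1, 25.9, 72.4 and 99.3.

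Shorter windows show the GGAC nearest to the middle of the recurrent stretch in other members, chosen by the score of their best peak. Each runs 21 bases with the A of the motif at its centre.
Rnf103, chr6:71509654-71509674, plus strand, coding: cataccttGGACatggtttgc
Rnf111, chr9:70476413-70476433, minus strand, coding: caagagaaGGACatgactggc
Rnf19a, chr15:36241807-36241827, minus strand, coding: accagagaGGACatggatgca
Rnf213, chr11:119430384-119430404, plus strand, coding: ctggataaGGACcccagagag
Trim26, chr17:36857804-36857824, plus strand, coding: aggaaaggGGACctctccctg
Trim41, chr11:48816194-48816214, minus strand, coding: gaagatgaGGACgaggaggag
Trim33, chr3:103353910-103353930, plus strand, 3′ untranslated: aatgactcGGACttaaatcgg
Trim30a, chr7:104435663-104435683, minus strand, coding: tgtaggaaGGACatgatggtc
Usp8, chr2:126742449-126742469, plus strand, coding: caaaggatGGACaagagaaaa
Usp15, chr10:123113626-123113646, minus strand, coding: tttcagtgGGACtggcttctt
Usp47, chr7:112093159-112093179, plus strand, coding: gaacgctcGGACtcagatgtg
All but the Trim33 window lie in coding sequence, and the Trim33 motif starts just behind the stop codon. The Trim33 region shown reached percentiles of 53.6, 49.4, 77.8 and 59.6. Higher Trim33 peaks, at 84.9, 83.3 and 77.0 in WT-1, WT-2 and KO-2, lay further into its 3′ untranslated region. A GGAC is no mark of methylation by itself. It occurred, searched on the transcript strand, in 87.8%, 86.6%, 90.8% and 90.1% of member peaks of the 4 lists, and in 86.8%, 88.6%, 87.0% and 87.4% of the peaks of all genes. With the window held at the central 200 bp, the shares were 56.5%, 57.1%, 63.3% and 56.8% for members and 61.8%, 64.4%, 62.0% and 61.5% for all genes. Taken whole, the members' peaks thus held the motif about as often as peaks at large. In the central 200 bp the members' share was lower in every list but KO-1, where it was higher. This difference was not tested.

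The families differed in how dense the motif was. Usp peaks held 5.99, 5.71, 6.38 and 6.08 GGAC per kb of exon in the 4 lists. Rnf peaks held 4.49, 4.38, 4.43 and 4.26, and Trim peaks 4.55, 4.52, 5.16 and 4.45. The Usp values lay above those of both other families in every list. Outside listed peaks, transcripts of the same members held 3.53 per kb for Usp, 3.37 for Rnf and 3.41 for Trim, a near-equal base level. Peaks of 1 gene recur across lists, so the 4 values per family are not independent samples of sequence, and the difference was not tested. Density over the peaks of all genes is not given, so which family departs from peaks at large is not known.

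Members carried listed peaks more often than genes at large, and Usp genes most often. The members were chosen with earlier results of these data known, so their higher shares here and below are not independent evidence. In the lists, 26, 24, 26 and 25 of the 50 Usp genes had a peak, a mean of 50.5% ± 1.91 (SD, n = 4 lists). The Rnf counts were 30, 31, 25 and 27 of 82, a mean of 34.5% ± 3.36 (SD, n = 4), and the Trim counts 23, 25, 26 and 24 of 68, a mean of 36.0% ± 1.9 (SD, n = 4). Over all genes, the shares were 19.5%, 20.4%, 19.5% and 20.8%. The lowest Usp value, 48.0%, lay above the highest Trim value, 38.2%, and the highest Rnf value, 37.8%. At least 1 list held a peak for 41 Rnf, 35 Trim and 33 Usp genes, 109 of the 200 members or 54.5%, against 32.6% of all genes.

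**Figure D1:**
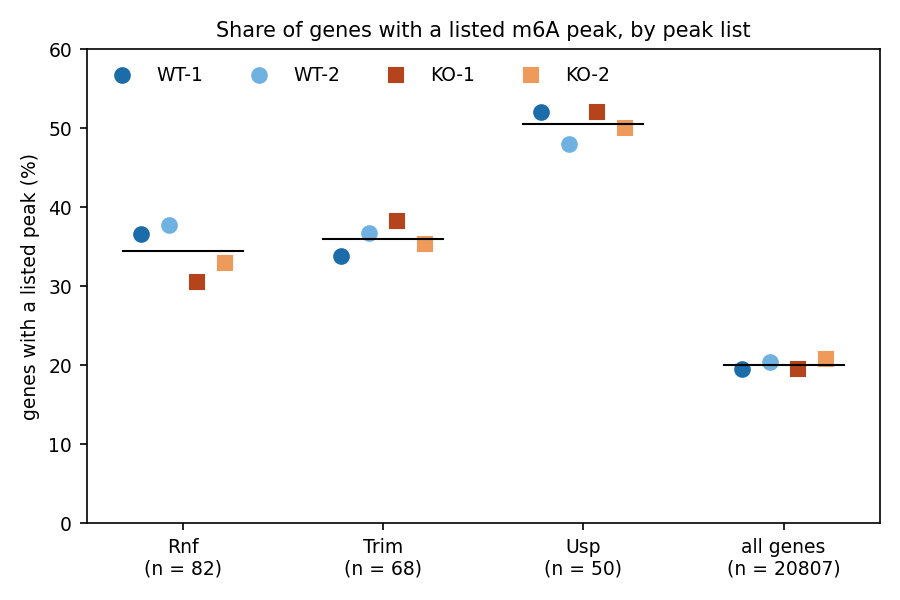
Share of genes with a listed peak (y axis, percent) for each family and for all genes outside X, Y and the mitochondrial chromosome (x axis, number of genes in brackets). Circles are WT lists, squares KO lists, and the line is the mean of the 4 lists. Usp values sit between 48.0% and 52.0%, above every Rnf and Trim value, and all families sit above the genes at large.

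Length went with these shares. The median length of the longest-coding transcript was 4509.5 bases for Usp, 3181 for Rnf, 2926.5 for Trim and 2580.5 for all genes. Members with a peak in at least 1 list had a median transcript of 4042 bases and those with none of 2257, against 3492 and 2148.5 over all genes. Below 2000 bases, 9 of 45 members (20%) had a peak, against 15.6% of all genes. Between 2000 and 4000 bases the shares were 51.8% and 36.2%, between 4000 and 6000 bases 81.6% and 49.0%, and from 6000 bases 76.2% and 57.2%. The members' share thus stood above that of all genes in each length class, by least among the short transcripts. By family, 4 of 24 Rnf, 5 of 16 Trim and 0 of 5 Usp genes below 2000 bases had a peak. Between 2000 and 4000 bases the counts were 16 of 32, 21 of 41 and 7 of 12, with Usp highest (58.3%). Within the class from 4000 to 6000 bases, 17 of 20 Rnf, 7 of 7 Trim and 16 of 22 Usp genes had a peak, so Usp did not lead there. From 6000 bases the counts were 4 of 6, 2 of 4 and 10 of 11, with Usp highest (90.9%). Whether length accounts for the Usp lead was not tested. How many of the members without a peak were expressed was not tested.

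The same members recurred. A peak in all 4 lists was found for 17 Rnf, 16 Trim and 14 Usp genes, 47 members or 23.5%, against 9.99% of all genes. A further 24 members had a peak in 3 lists, 10 in 1 WT and 1 KO list, 24 in a single list and 91 in none. The WT lists shared 60 members, 75.9% of the first and 75.0% of the second. The KO lists shared 62, or 80.5% and 81.6%. WT-1 and KO-1 also shared 62, 78.5% and 80.5%, so that lists of 1 genotype shared about as many members as lists of different genotypes. Over all genes the WT lists shared 68.3% and 65.2%, the KO lists 77.0% and 72.4%, and WT-1 and KO-1 69.4% and 69.2%.

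**Figure D2:**
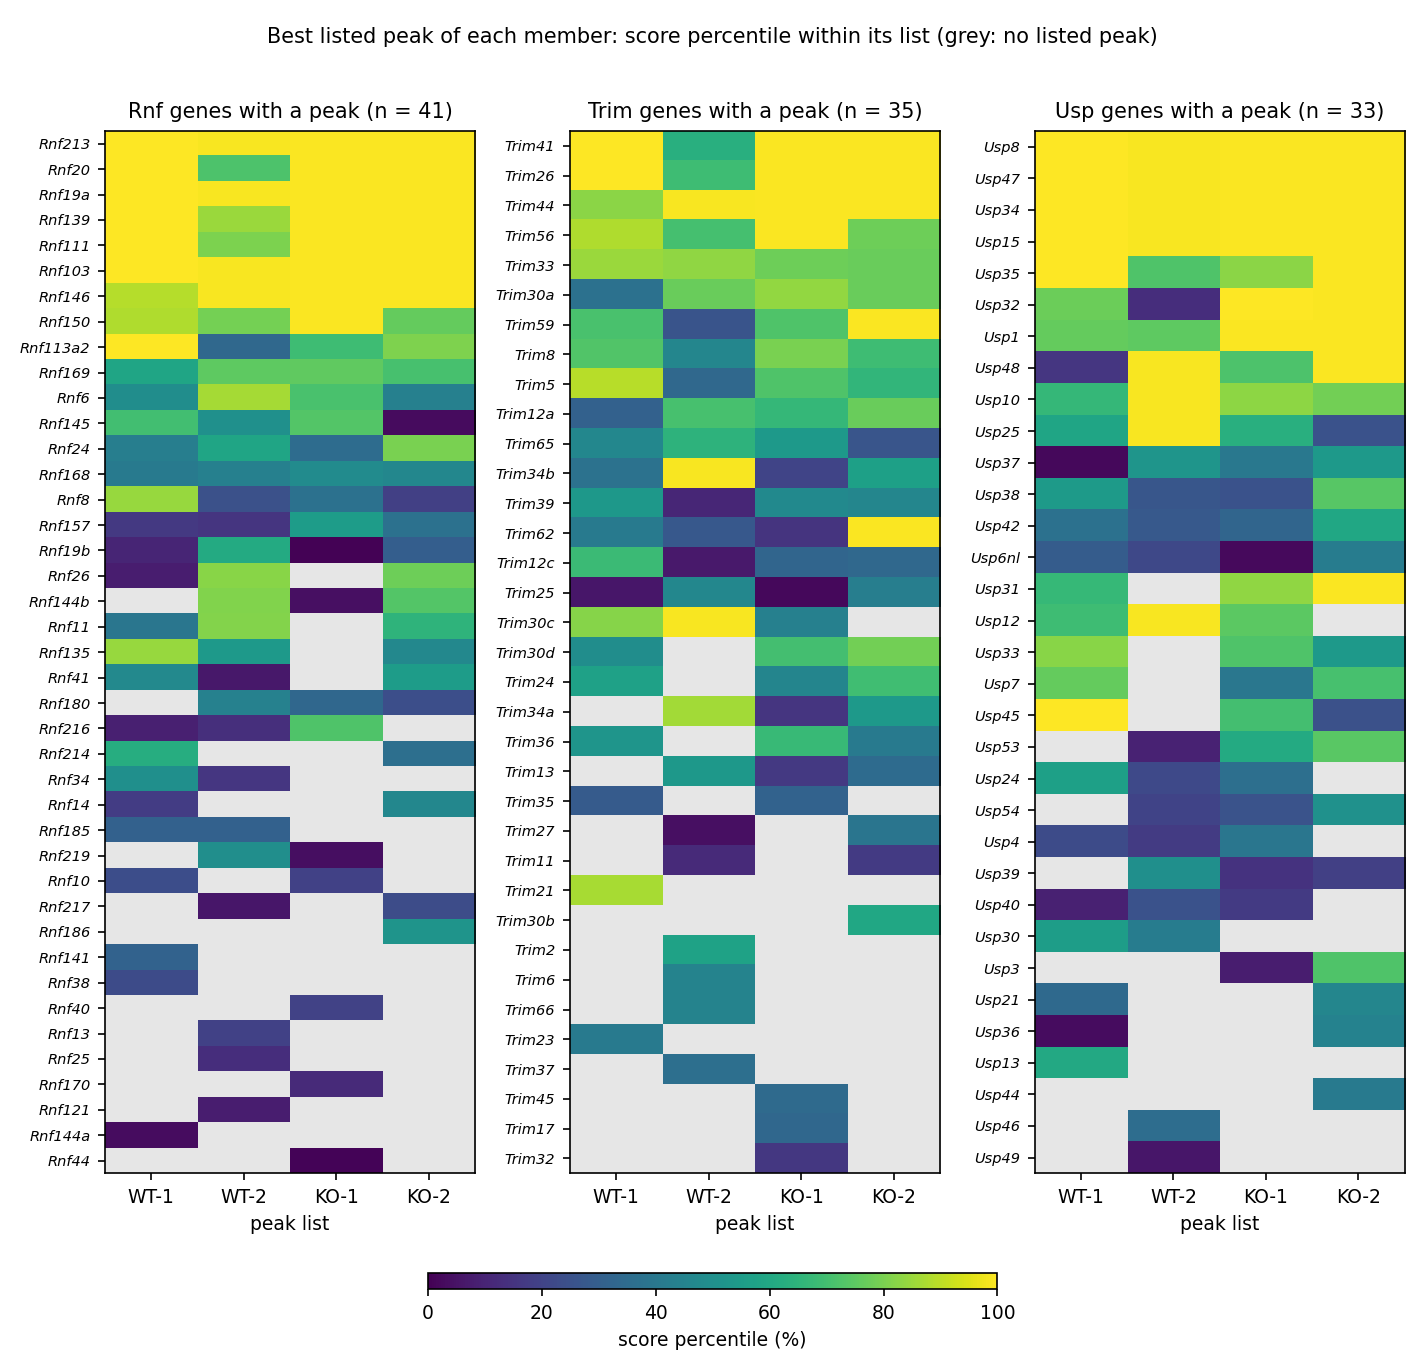
Score percentile of the best peak (colour, 0 to 100%) of every member with a peak, by list (columns), in Rnf (n = 41), Trim (n = 35) and Usp (n = 33) genes (rows, ordered by number of lists and median percentile). Grey means no listed peak. The upper rows of each panel are filled in all 4 columns, and the members with 1 or 2 lists below them mostly score lower.

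Among the Rnf ligases with peaks in all 4 lists, those with the highest scores were Rnf103, Rnf111, Rnf139, Rnf19a, Rnf20 and Rnf213, each with a median best percentile of 99.4. Rnf103 and Rnf139 encode ligases of the endoplasmic reticulum membrane. On Rnf103, 1 region of 1735 bases took in most of the coding part of the last exon, and reached the stop codon in every list but WT-2. On Rnf139, a region of 2605 bases spread over the stop codon in the last exon of 4082 bases, and reached the codon in all 4 lists. Rnf111 (Arkadia), which promotes TGF-β signalling, had the identical peak of 893 bases in every list, its whole exon 3 with the start codon. Its percentiles there were 99.7, 80.3, 99.4 and 99.3. Rnf20, the ligase that attaches ubiquitin to histone H2B, had all 365 bases of exon 13 of 20 listed in every list but WT-1, which listed 344 of them, at 99.7, 72.1, 99.4 and 99.3. Rnf19a, a RING-between-RING ligase, was listed at both ends, over the start codon in exon 2 and over the stop codon in exon 10, in all 4 lists.

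Rnf213, a giant ATPase and ligase with antimicrobial activity, carried 3, 5, 4 and 5 peaks in the 4 lists. Exons 20, 25 and 28 of its 67 exons, of 584, 1150 and 3603 bases, were listed nearly end to end in all 4 lists. They lie at chr11:119430166-119430749, chr11:119435911-119437060 and chr11:119440189-119443791. Exon 3 was listed whole in every list but WT-1, and a peak over the stop codon in WT-2 and KO-2. The listed bases totalled 5337, 7219, 5776 and 7190, so neither genotype was above the other. Rnf169, which binds ubiquitylated chromatin at DNA breaks, followed with 2, 3, 4 and 2 peaks, most of them in its last exon of 6230 bases.

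Among the Trim genes, Trim26, Trim41, Trim44, Trim56, Trim33 and Trim30a had the highest median best percentiles in all 4 lists, from 99.4 for Trim26 down to 77.1 for Trim30a. Trim26 and Trim41 encode ligases with roles in antiviral responses. Trim26 was listed over the stop codon, at percentiles of 99.98, 69.0, 99.4 and 99.3, and Trim41 in exon 1, at 99.7, 63.0, 99.4 and 99.3. Both were lowest in WT-2. Trim44, which lacks a RING and carries a ubiquitin-binding zinc finger instead, was listed at its first exon and over the stop codon in every list. Trim33, a chromatin-bound regulator of SMAD signalling, was listed over the stop codon 4 times, at 53.6, 49.4, 77.8 and 59.6, and further into its 3′ untranslated region in every list but KO-1.

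Trim56, a ligase of the cGAS-STING pathway, had the most peaks of all members: 6 and 6 in the WT lists, 4 and 2 in the KO lists. Nearly all of its 9279-base transcript is 1 exon of 9018 bases, and the lists cut it differently. The listed bases were 5886, 4004, 5796 and 6235, with WT-2 lowest and KO-2 highest. Fewer peaks in the KO lists therefore did not mean fewer listed bases. One stretch at the 3′ end of the untranslated region, chr5:137105687-137106475, was listed in both WT lists, at percentiles of 60.4 and 63.4, and in neither KO list.

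**Figure D3:**
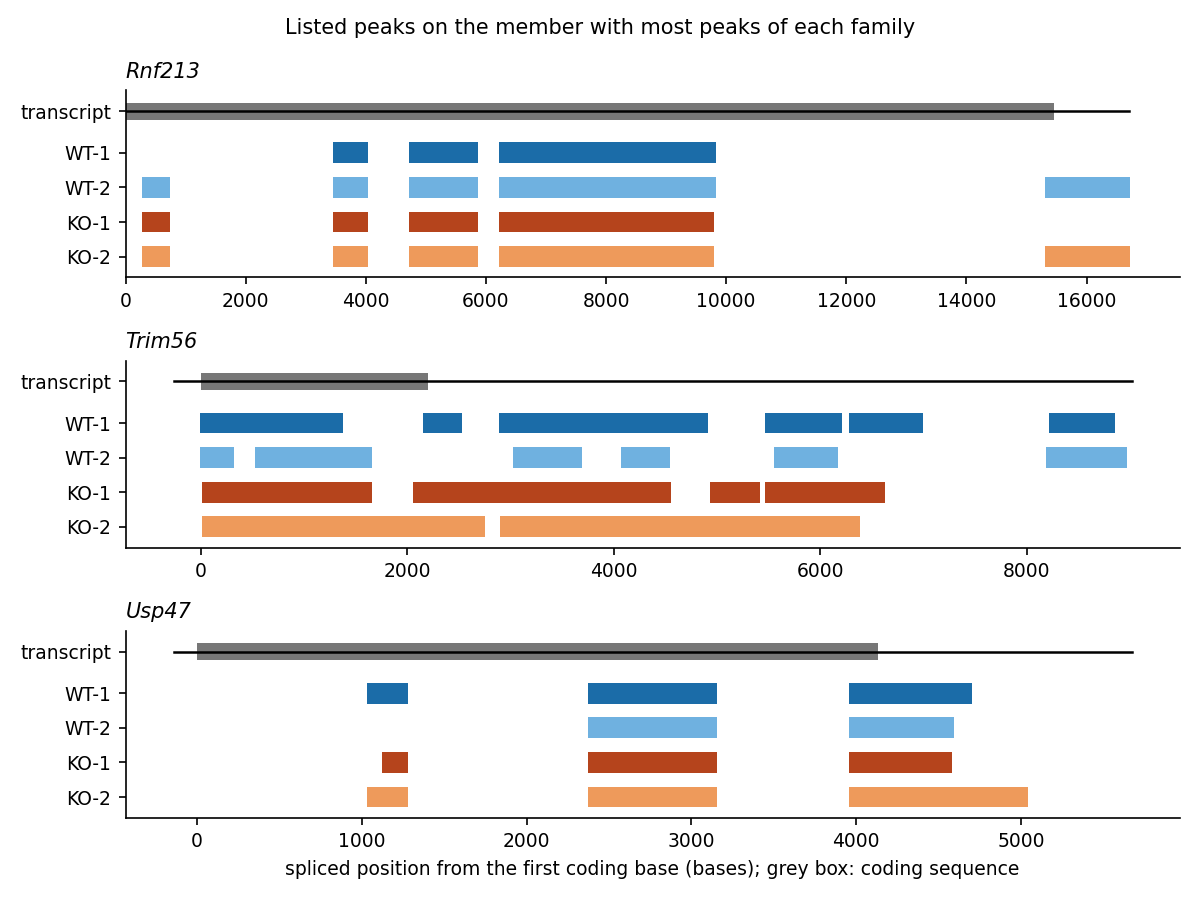
Listed peaks on Rnf213, Trim56 and Usp47, the member with most peaks in each family. The x axis is the spliced position in bases from the first coding base, the upper line the transcript with its coding sequence as a grey box, and each bar a peak of 1 list (WT in blues, KO in oranges). Exons 20 and 25 of Rnf213 and exon 21 of Usp47 are filled in every list, other peaks of both genes are missing from some lists or differ in width, and Trim56 shows 6, 6, 4 and 2 peaks of unequal width over 1 long exon.

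Among the proteases, Usp15, Usp34, Usp47, Usp8, Usp35 and Usp32 led, the first 4 at the top scores in every list. Usp8, an endosomal protease that spares receptors from lysosomal breakdown, had the identical 558-base peak in all 4 lists. It is the whole of exon 11 of 19, chr2:126742124-126742681, at percentiles of 99.7, 99.1, 99.4 and 99.3. Usp47, which acts on DNA polymerase β in base excision repair, had all 781 bases of exon 21 listed 4 times, with 10 GGAC, and its stop codon listed 4 times. Usp15, which regulates TGF-β receptors and antiviral signalling, had 1 region of 453 bases across the stop codon at the start of an 8682-base last exon. Usp32 varied more, at 77.6, 13.0, 99.8 and 99.3 in exon 32 of 34, and Usp35 lay at 99.7, 72.5, 82.7 and 99.3 in exon 10 of 11. Usp42, a protease of histone H2B, was listed 4, 1, 2 and 2 times at best percentiles between 27.9 and 59.6.

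Members of the innate immune list, 31 genes, had peaks in 21, 19, 16 and 19 cases in the 4 lists. In all, 24 had a peak somewhere (77.4%, against 54.5% of members and 32.6% of all genes) and 11 in all 4 lists (35.5%, against 23.5% and 9.99%). The innate immune list was chosen with earlier results of these data known, so these higher shares are not independent evidence. Of the ligases that act on RIG-I and MDA5, Trim25 was listed at percentiles of 6.20, 46.2, 2.27 and 42.8, low in 1 list of each genotype. Trim65 was listed at 46.3, 64.7, 54.3 and 26.5, and Rnf135 (Riplet) at 84.6, 53.6 and 46.8 in every list but KO-1. Trim8, which promotes NF-κB activation, had peaks over its start codon in every list, with best percentiles of 72.9, 45.8, 79.9 and 68.8.

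Rnf216 (Triad3A), which lowers Toll-like receptor levels, was listed in every list but KO-2, and Rnf26 and Rnf41, with roles in STING and Toll-like receptor signalling, in every list but KO-1. Trim21, the cytosolic antibody receptor, had a peak in WT-1 alone, at the 86.7 percentile, and Trim27 in WT-2 and KO-2. Among the proteases that act on these pathways, Usp25 was listed 4 times, at 58.7, 99.1, 63.3 and 25.3, Usp4 in every list but KO-2, Usp21 in WT-1 and KO-2, and Usp13 in WT-1. No list held a peak on the other 7 listed members, Rnf5, Rnf31, Rnf114, Rnf125, Trim14, Trim38 and Usp18.

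Among all members, 54.5% had a peak in at least 1 list and 23.5% in all 4, and among all genes 32.6% and 9.99%. Of 13 members with roles in DNA damage or the cell cycle, 11 had a peak and 9 had one in all 4 lists: Rnf8, Rnf111, Rnf168, Rnf169, Usp1, Usp10, Usp37, Usp47 and Usp48. Rnf8 and Rnf168 ubiquitylate chromatin around DNA breaks, and Usp1 acts on PCNA and FANCD2. Of 11 chromatin and transcription members, 7 had a peak and 3 had one in all 4 lists. Of 25 members of the membrane, endoplasmic reticulum and endosome list, the counts were 16 and 9. None of the 10 muscle and testis members, among them Trim63 (MuRF1), Trim54 and Trim55, had a peak in any list. These role lists, too, were chosen with earlier results of these data known.

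The families also differed in where along the transcript their peaks lay. Peaks that included the start codon made up 17.6%, 12.5%, 19.4% and 31.4% of Trim peaks in the 4 lists, and 7.50%, 8.51%, 13.2% and 15.8% of Rnf peaks. No Usp peak in any list included an annotated start codon. Over all genes the shares were 7.66%, 7.56%, 9.67% and 9.63%. The Trim share was 10.4 percentage points higher in the KO than in the WT lists and the Rnf share 6.47 points, against 2.04 points over all genes (two-sided exact permutation p = 0.33 for each, the smallest that 2 lists against 2 allow). The exon with the start codon is long in Trim genes, where it usually encodes the RING and B-box. Its median was 508 bases, and 55 of 68 were 400 bases or longer. The medians were 268 bases in Rnf, 255 in Usp and 259 in all genes. Whether exon length accounts for the difference was not tested.

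**Figure D4:**
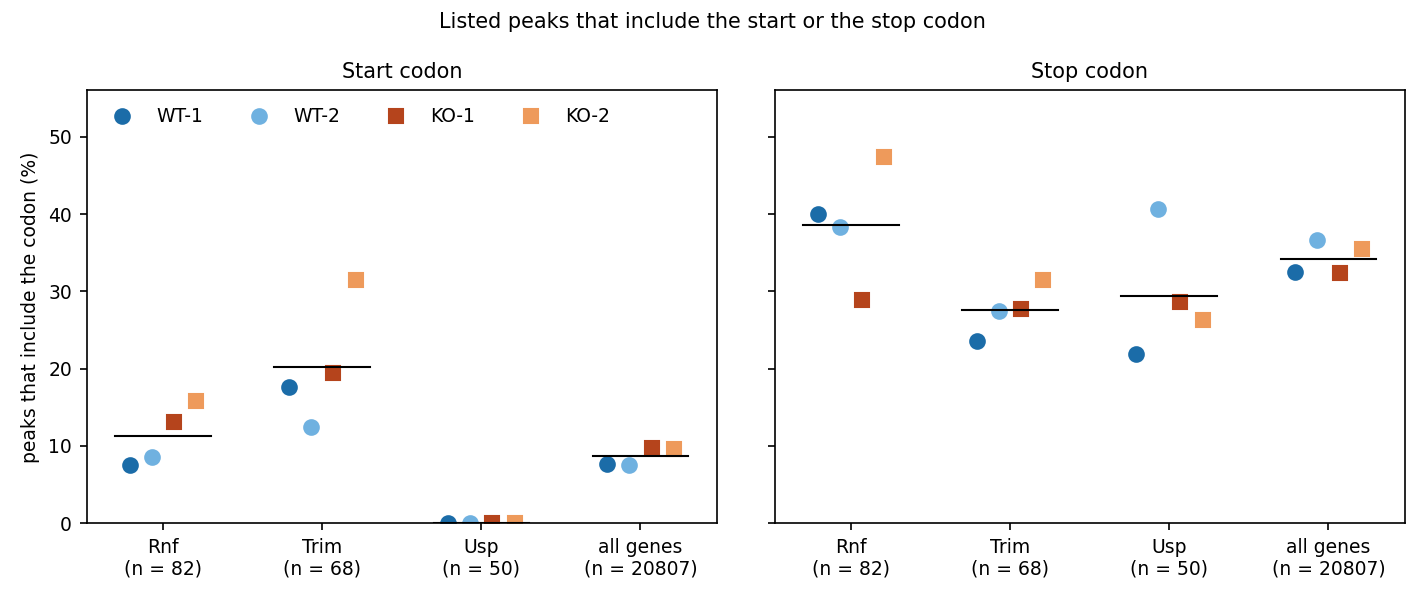
Share of listed peaks (y axis, percent) that include the start codon (left) or the stop codon (right), by family and for all genes (x axis, number of genes in brackets). Circles are WT lists, squares KO lists, and the line is the mean of the 4 lists. At the start codon every Trim value, from 12.5% to 31.4%, lies above all genes and every Usp value is 0, while at the stop codon the families overlap.

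By gene, 14 Trim genes had a start codon within a peak of at least 1 list, and Trim30a, Trim34b and Trim8 in all 4. Of the 14, Trim12c, Trim30a, Trim30d, Trim34a and Trim34b belong to a group of neighbouring near copies whose own peaks are uncertain. Over all genes, 1049 of 20376 with an annotated start codon had such a peak, against 14 of 68 Trim genes. Among 81 Rnf genes there were 9, and Rnf111 and Rnf19a in all 4, against 0.785% of all genes with an annotated start codon that had one in all 4. Trim12c, Trim30d and 1 further Trim gene, Trim41, had such a peak in both KO lists and neither WT list, out of 14, against 10.2% of all genes with a start-codon peak. Trim56 had one in both WT lists and neither KO list, against 1.72%. In Trim56 this rested on few bases, since its KO peaks began 10 bases behind the first coding base and its WT peaks 1 base before it. In Trim41 the WT peaks lay in the same exon, in WT-2 on both sides of the codon, without including it. Listed member peaks were wider in the KO lists: the median was 522 and 532 bases in WT, and 563 and 627 in KO. Over whole lists, 25.7% and 25.1% of peaks in WT and 28.6% and 31.3% in KO started at an exon start. The median width over all genes is not given here, so the wider peaks cannot be called particular to members. The part of width in these counts was not tested.

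Stop codons lay within 40.0%, 38.3%, 28.9% and 47.4% of Rnf peaks, 23.5%, 27.5%, 27.8% and 31.4% of Trim peaks, and 22.0%, 40.6%, 28.6% and 26.3% of Usp peaks. Over all genes the values were 32.5%, 36.6%, 32.4% and 35.5%. The families overlapped each other, and Rnf and Usp overlapped all genes. Every Trim value lay below every value of all genes, and this difference was not tested. A stop codon was listed in all 4 lists for 7 Rnf, 3 Trim and 5 Usp genes, against 3.82% of all genes with one annotated. The Rnf genes were Rnf139, Rnf145, Rnf146, Rnf168, Rnf169, Rnf19a and Rnf24.

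Overlapping peaks of the 4 lists were merged into 190 regions on members, of which 46 held a peak of every list, 24.2% against 18.7% of the regions on all genes. Of these recurrent regions, 8 of 14 on Usp genes lay wholly in coding sequence, against 4 of 18 on Rnf, 1 of 14 on Trim and 25.9% on all genes. An exon was filled exactly by 7 of 14 regions on Usp genes, 6 of 18 on Rnf and 0 of 14 on Trim genes, against 24.1% of all recurrent regions. Peak ends were thus often exon ends, and a peak's width there is the exon's and not that of a methylated site. The exon that held the region was 400 bases or longer in 45 of the 46, the exception being Rnf20 with 365 bases, and in 92.1% over all genes.

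KO was compared with WT over the 4 lists with a two-sided exact permutation test, which with 2 lists against 2 cannot give a p under 0.33. Members with a peak numbered 79 and 80 in the WT lists and 77 and 76 in the KO lists, a difference of -3 (exact permutation p = 0.33). Member peaks numbered 115 and 119 in WT and 109 and 111 in KO, a difference of -7 (exact permutation p = 0.33). The groups did not overlap, yet the peaks on all genes went the other way, from 5744 and 5896 in WT to 5905 and 6211 in KO. Among the strongest-scoring 50% of peaks of each list the differences were 2.5 members and 0.5 peaks, so their direction turned.

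The lower member counts of the KO lists lay mainly among Rnf genes, with 30 and 31 in WT and 25 and 27 in KO. Over all genes, 4052 and 4245 had a peak in the WT lists and 4064 and 4321 in the KO lists, which overlap. Trim genes, 23 and 25 against 26 and 24, and Usp genes, 26 and 24 against 26 and 25, overlapped between genotypes. Whether the families differ in this was not tested.

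The share of member peaks with their midpoint in coding sequence was 55.0% and 49.1% in WT and 57.1% and 60.6% in KO, a difference of 6.82 percentage points (exact permutation p = 0.33). Over all genes it was 49.3% and 47.3% in WT and 54.7% and 52.1% in KO, so members and all genes differed in the same direction. Without WT-2 the members' difference was 3.90 points, counted over every base of a peak 3.33 points, and among members with a single coding transcript -0.708 points. The share with GGAC differed by 3.27 points (exact permutation p = 0.33), by 1.82 points among the top 50% of scores, and by -0.814 points for GGACT. The median score percentile of member peaks was 53.6 and 46.9 in WT and 47.5 and 54.2 in KO, a difference of 0.588 with overlapping groups (exact permutation p = 0.667). It turned to -2.76 without WT-2 and -2.75 without KO-2, and was 4.38 with an equal number of peaks per list and 11.3 with only the best peak of each member (exact permutation p = 0.33 for both).

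A peak in both WT lists and neither KO list was found for 3 members, Rnf185, Rnf34 and Usp30, of the 109 with a peak, against 4.04% of all genes with a peak. The reverse was found for 1 member, Usp3, against 4.91%. No Trim gene showed either pattern. With any 1 list left out, the counts were 7 to 12 and 4 to 8. Such a count cannot fall, since 3 lists ask for less, so the rise does not measure how firm the patterns are. The percentiles of these 4 genes lay between 8.14 and 72.5.
Rnf34, chr5:122864207-122864227, plus strand, coding, WT lists: gccaccgtGGACtaggctcag
Rnf185, chr11:3417259-3417279, minus strand, 3′ untranslated, WT lists: gaataacaGGACaggttgccc
Usp30, chr5:114123073-114123093, plus strand, 3′ untranslated, WT lists: catactgaGGACttgagactc
Usp3, chr9:66515260-66515280, minus strand, 3′ untranslated, KO lists: gctatctaGGACagataatga
These windows show the GGAC nearest to the middle of the bases that both lists shared. Rnf34, a RING ligase with roles in apoptosis, was listed in coding exon 3 of 6 at percentiles of 49.7 and 16.0, with bases of its peaks reaching into the introns. Rnf185, an endoplasmic reticulum ligase that also acts on cGAS, was listed in its last exon at 31.2 and 30.9. Usp30, the protease of the outer mitochondrial membrane that opposes Parkin, was listed in its 3′ untranslated region at 55.5 and 41.9, with nearly the same bounds in both mice.

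Usp3, which removes ubiquitin from histone H2A and RIG-I, was listed far into its 3′ untranslated region at percentiles of 8.14 in KO-1 and 72.5 in KO-2, and KO-2 added a peak over the stop codon. Its KO-1 value lay near the lower end of that list. No p is given for these single genes, and a gene near the calling threshold can leave a list for either genotype.

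**Figure D5:**
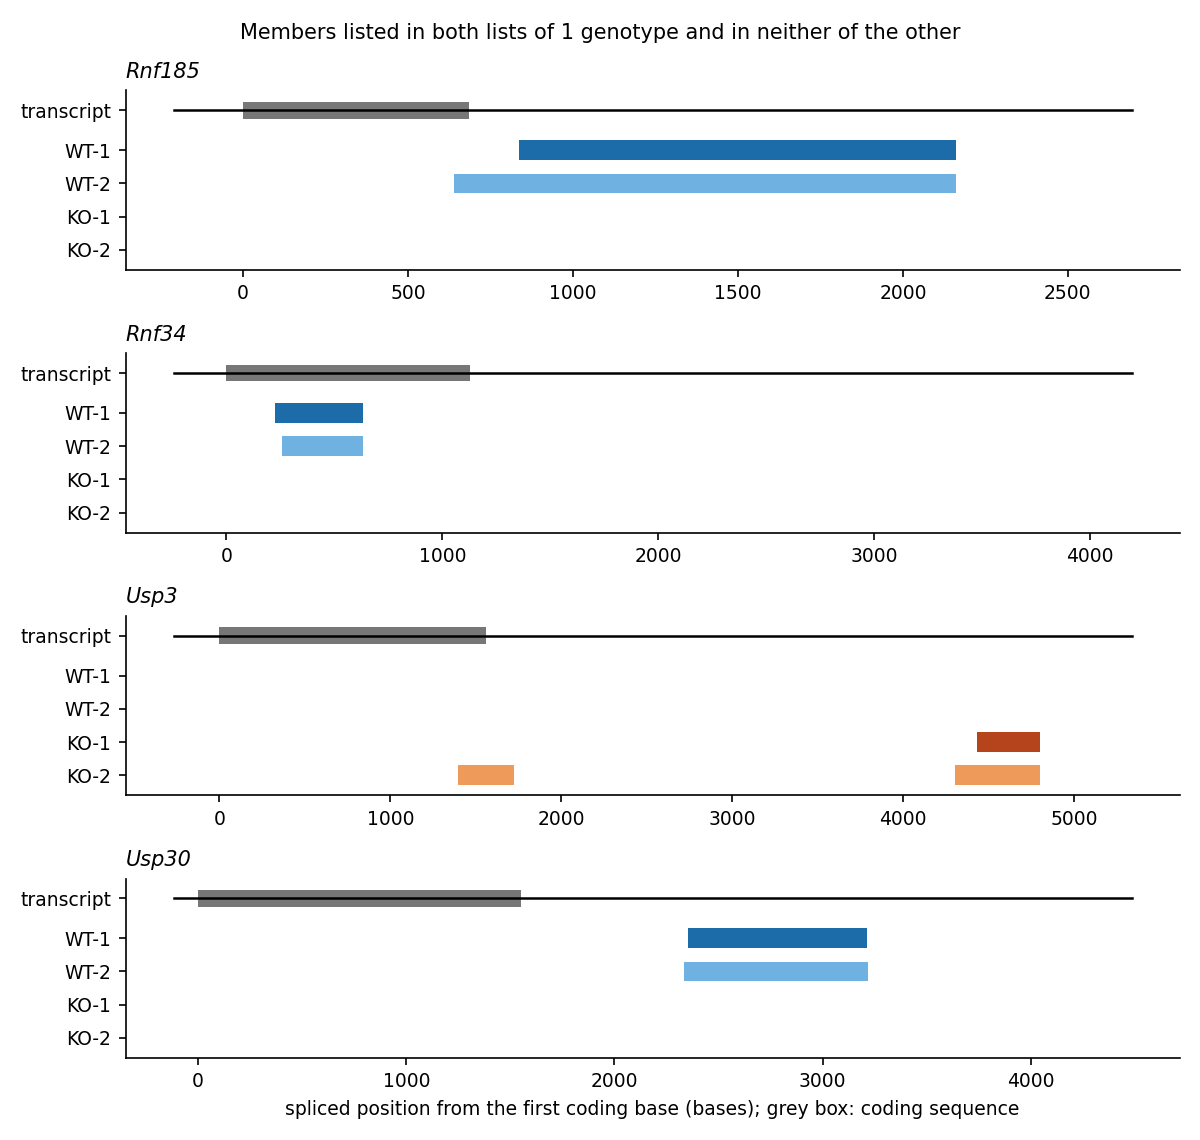
Listed peaks on Rnf185, Rnf34, Usp3 and Usp30, the members listed in both lists of 1 genotype and in neither of the other. The x axis is the spliced position in bases from the first coding base, the grey box the coding sequence, and each bar the exonic part of a peak of 1 list. The WT peaks of Usp30 nearly coincide between mice and those of Rnf34 and Rnf185 overlap, while Usp3 has 1 peak in KO-1 and 2 in KO-2.

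By region, 6 of 190 on members were listed in both WT and neither KO list, against 3.44% of all regions, and 7 in both KO and neither WT list, against 6.04%. The WT regions lay on Rnf185, Rnf34, Rnf8, Trim30c, Trim56 and Usp30. The KO regions lay on Rnf20, Trim12c, Trim25, Trim30d, Usp3, Usp38 and Usp54. On Rnf8, the WT region lay at the start of the 3′ untranslated region, at percentiles of 62.2 and 24.9. It included the stop codon in WT-2 alone, while exon 3 was listed in every list but WT-2. Usp38 gained a region in coding exon 1 in the KO lists, at 25.3 and 16.2, beside a region in exon 9 that all 4 lists held. Usp54 was listed in its 5′ untranslated region at 25.6 and 50.5. The KO region of Rnf20, exon 5, was the only one of the 13 without a GGAC.

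A group of 10 neighbouring Trim genes holds near copies. Trim6, Trim34a, Trim5, Trim12a, Trim34b, Trim12c, Trim30b, Trim30c, Trim30a and Trim30d lie together at chr7:104218793-104507849, and every one of them had a peak in at least 1 list. Without them the mean Trim share fell to 28.9% from 36.0%. Of all 50-base stretches in its exons, Trim34b shares 56.6% with another gene of the group, Trim34a 40.1%, Trim5 29.9%, Trim12c 26.8% and Trim12a 19.7%, but Trim30c 0.66%. Trim34a and Trim34b had first peaks of the same widths, with midpoints equally far from the first coding base, 620 bases in WT-2 and KO-2, and 554 in KO-1. The Trim34b region reached 123 bases past its annotated exons, the Trim34a region none, and in WT-1 only Trim34b was listed. How reads that match both were placed is not given in the sources used here, so each gene's own peaks are uncertain.

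In the same group, Trim30c was listed in its last exon in both WT lists, at percentiles of 81.7 and 99.1, and in neither KO list, while its exon 2 was listed in WT-1 and KO-1. None of the 50-base stretches in its peaks occurs in another gene of the group. Trim30d, its neighbour, was listed over the stop codon in both KO lists, at 70.1 and 65.3, and 12.1% of the stretches in its peaks are shared. The motif windows of Trim30a and Trim12c differ at 1 of 21 bases, and the KO region of Trim12c holds that window.
Trim30c, chr7:104382469-104382489, minus strand, coding, WT lists: taaatgatGGACtgtgtgttc
Trim30d, chr7:104472045-104472065, minus strand, coding, KO lists: cagtatgcGGACcaccatcct
Trim12c, chr7:104348009-104348029, minus strand, coding, KO lists: tgtaggaaGGACatgatggcc

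The rest of the ubiquitin pathway was read from gene lists, which were also chosen with earlier results of these data known. Among 34 E2 genes, 12, 10, 8 and 6 had a peak in the 4 lists, and 15 in at least 1 list (44.1%, against 32.6% of all genes). Ube2e3, Ube2j2, Ube2q1 and Ube2v1 were listed in both WT and neither KO list, and Ube2v2 the other way round, patterns held by 4.04% and 4.91% of all genes with a peak. With 2 lists against 2 this difference was not tested. Ube2v1 and Ube2v2 are partners of Ube2n in building lysine-63 chains. The E2 genes with peaks in all 4 lists were Ube2h, Ube2k, Ube2o and Ube2r2. For all genes the share with a peak in at least 1 list was 32.6%, and in all 4 lists 9.99%. Of 23 HECT ligases, 19 had a peak and 8 had one in all 4 lists, none was WT-only and Smurf2 was KO-only. Of 26 other RING ligases, 25 had a peak and 14 had one in all 4 lists, among them Traf3, Traf6, Birc2, Birc3 and Mdm2. Of 23 other deubiquitinases, 18 had a peak and 10 had one in all 4 lists, among them Tnfaip3 (A20), Cyld and Otulin, which restrain NF-κB. Cullins had a peak in 6 of 7 genes, 2 of them in all 4 lists and Cul9 in the KO lists alone, with 4 and 2 peaks, and the E1 and ubiquitin genes in 3 of 9.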

How the data were processed

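The authors immunoprecipitated fragmented m6A RNA with a GenSeq kit, made stranded libraries (NEBNext Ultra II Directional) of immunoprecipitate and input, and called peaks per mouse. The submitters' processing notes name cutadapt 1.9.3, HISAT2 2.0.4 and build mm10, and the peak caller's threshold is not given in the sources used here. The deposited peak lists hold 1 score per peak, and its unit is not stated; depth per library is unknown. Starts were taken as counted from 0, since 25.1% to 31.3% of them then equal an exon start, and are printed counted from 1.

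Peaks were assigned to GENCODE M21 exons of coding transcripts by the largest overlap (at least 1 bp). Position was read on the transcript with the longest coding sequence. Regions are peaks of the lists that overlap by at least 1 bp. Sequences came from RefSeq's GRCm38.p6. Python 3.11.15, numpy 2.4.6, pysam 0.24.0 and samtools 1.23.1 were used. On simulated peaks on 1200 genes, 98.7% returned to their gene.

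The 4 lists were grouped by genotype from the labels. Differences were tested by exact permutation over the 6 labellings; nothing says how the mice were batched. Members and gene lists were chosen with earlier results of these data known. Named were all members listed in 1 genotype only, per family the 6 with the highest median best percentile in all 4 lists and the 3 with most peaks, and the innate immune list. Alternatives were stricter scores, equal list lengths, whole-exon peaks, other overlaps, transcripts and motifs, and each list left out. The count of unmapped sample columns was 0. Some items are not reported here.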

Additional observations from a re-analysis of the deposited data

How the results depend on the processing

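Of 115 alternative values, 79 kept their direction or size, 30 moved and 6 turned. With the top 50% of scores, the difference in members with a peak became 2.5 and in member peaks 0.5, the WT-only and KO-only regions 3 each, the KO-only members 2, the members in all 4 lists 21, and the Rnf, Trim and Usp shares 18.6%, 20.6% and 31.0%; that setting keeps fewer peaks. With only peaks wholly in exons, the Trim and Usp shares were 33.8% and 48.0%. With members of a single coding transcript the CDS difference was -0.708 points, and with GGACT the motif difference was -0.814 points; the cause was not tested. Leaving out 1 list at a time, WT-only members ranged from 7 to 12, KO-only members from 4 to 8, WT-only regions from 12 to 28 and KO-only regions from 14 to 28, since 3 lists ask for less, and each of the 4 lists moved each count by over 1.5 times. The median percentile difference ranged from -2.76 to 3.94, negative without WT-2 or KO-2. Of alternatives chosen after seeing the data, leaving out the 10 neighbouring Trim genes gave a Trim share of 28.9%, and counting exons of every annotated transcript gave differences of -1.5 members and -3 peaks.

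Same-numbered lists share only a number. Their deviations correlated at -0.0696 over the 109 members with a peak and at -0.015 over 6778 genes, and with 2 pairs the replicate block left the differences at -3 members and -7 peaks (p = 0.5, exact permutation of signs). Under the pairing a gene or region needed at least 1 of the 2 pairs in that direction and none in the other, which gave 28 WT-only and 24 KO-only members and 64 and 59 regions. Depth is unknown, so an unlisted peak sets no level of 0.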
